A study of Homo sapiens with 4 samples.

Results

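Here the miR-15/16 family means microRNAs with a shared seed from 3 hairpin pairs, miR-15a with miR-16-1, miR-15b with miR-16-2, and miR-195 with miR-497. Its members were taken by name from the table of mature miRNAs, as every entry called miR-15a, miR-15b, miR-16, miR-195 or miR-497, copy names included. This gave 5 entries of 1096 in all, or of 516 that bear a catalogue name, and each of the 5 was a 5p arm. The libraries came from PC-3, an established cell line grown from a human prostate cancer. The apelin group (2 libraries) had received apelin, a secreted peptide ligand of the APJ receptor, at 10 µg/mL for 24 h, and the control group (2 libraries) had received no treatment. Both were cultured in DMEM with 10% fetal bovine serum and antibiotics. Whether libraries of one group stem from different cultures is not in the labels, so p-values here reflect how far these 4 libraries vary, and that variation may be technical.

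A miRNA guides Argonaute to messenger RNAs mainly through its seed, bases 2 to 8, and lowers their translation and stability. The miR-15/16 seed is known for pairing with transcripts of the anti-apoptotic protein BCL2 and of the cyclins that carry cells through G1, among them cyclin D1 and cyclin E1. The miR-15a/16-1 locus lies in a region of chromosome 13 that is deleted in many chronic lymphocytic leukaemias and in some prostate cancers. Messenger RNAs were not measured in these libraries, so the values below are levels of the miRNAs alone.

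The mature sequences from RefSeq (GRCh38.p14) are printed to show what the members share and where they part, with the seed in capitals and the rest in lower case, 5′ to 3′. All 5 names were found there.
miR-15a-5p: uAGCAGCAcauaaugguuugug
miR-15b-5p: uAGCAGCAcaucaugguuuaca
miR-16-5p: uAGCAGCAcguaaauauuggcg
miR-195-5p: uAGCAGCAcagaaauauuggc
miR-497-5p: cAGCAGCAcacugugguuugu
miR-503-5p: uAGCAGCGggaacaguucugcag

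The seed AGCAGCA was the same in all 5 members. Among the 452 of 516 catalogue names that matched a RefSeq mature sequence, these 5 and no other carried it. RefSeq as a whole held 7 mature names with this seed, of 2370. miR-503-5p is shown for contrast: it shares bases 2 to 7 and has a different base 8. Outside the seed the members fell into closer and more distant pairs. miR-16-5p and miR-195-5p differed at 2 of 21 positions, miR-15a-5p and miR-15b-5p at 4 of 22, and miR-15a-5p and miR-497-5p at 4 of 21. The most distant pair was miR-16-5p and miR-497-5p, with 10 differences over 21 positions. The table lists all 5 at 22 nt, whereas the RefSeq sequences of miR-195-5p and miR-497-5p have 21 nt.

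The hairpin genes place the members at 3 sites (GRCh38 coordinates). On chromosome 13, minus strand, MIR15A (50049119 to 50049201) and MIR16-1 (50048973 to 50049061) lie 57 nt apart in the noncoding gene DLEU2, where GENCODE 29 puts MIR15A over an exon of at least 1 transcript and MIR16-1 in an intron. On chromosome 3, plus strand, MIR15B (160404588 to 160404685) and MIR16-2 (160404745 to 160404825) lie 59 nt apart in an intron of SMC4, which encodes a condensin subunit. On chromosome 17, minus strand, MIR497 (7017911 to 7018022) and MIR195 (7017615 to 7017701) lie 209 nt apart in MIR497HG, each over an exon of it, and within introns of the overlapping noncoding gene AC040977.2. Hairpin GC was 36.7% for MIR15B and 37.0% for MIR16-2, 42.2% for MIR15A and 40.4% for MIR16-1, and 56.3% for MIR195 and 67.0% for MIR497.

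**Figure D1:**
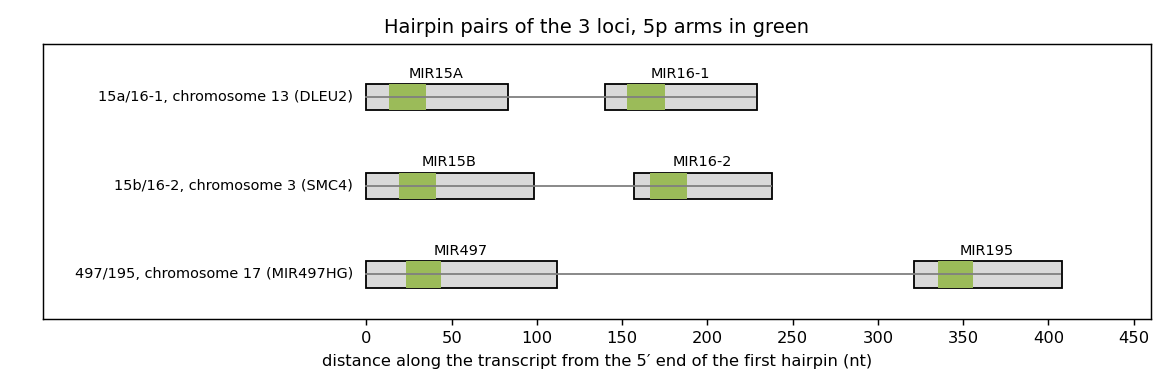
Map of the 3 hairpin pairs, drawn to scale as distance in nt along the transcript from the 5′ end of the first hairpin, with hairpins in grey and the 5p arms in green. The gap is 57 nt at the 15a/16-1 locus, 59 nt at the 15b/16-2 locus and 209 nt at the miR-195/miR-497 locus.

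The miR-16 hairpins are printed because they decide what can be said of a locus. The capitals mark miR-16-5p, which is identical in both, while the rest of each hairpin differs.
MIR16-1: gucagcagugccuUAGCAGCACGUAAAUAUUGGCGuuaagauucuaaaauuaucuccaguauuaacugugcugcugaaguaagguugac
MIR16-2: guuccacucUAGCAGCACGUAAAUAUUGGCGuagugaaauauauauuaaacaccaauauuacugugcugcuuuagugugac

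A count of miR-16-5p therefore cannot be assigned to chromosome 13 or chromosome 3. The 3p arms, which differ between these hairpins, had no entry in the table under these names. miR-15a-5p stood for the 15a/16-1 locus, miR-15b-5p for the 15b/16-2 locus, and the sum of miR-195-5p and miR-497-5p for the miR-195/miR-497 locus. These are levels of mature 5p arms, and the transcripts of the loci were not measured.

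The 4 libraries held 5322429 to 6014838 counts each. Some entries repeat the same counts under copy names, such as miR-24-3p and miR-24-2-3p. Totals, shares and ranks are therefore over entries, not over distinct reads. A deposited TPM value is a read count times 1000000 over the library total. It is not divided by length, so the length listed for a member does not enter its value. Ligation and amplification favour some small RNA sequences over others, which bears on levels compared between miRNAs. Of 6 marker names for epithelium or prostate epithelium, with miR-375 listed both with and without its arm, 4 had a mean of at least 10 TPM. Their sums were 132.3 and 124.7 TPM in the apelin libraries and 154.6 and 164.2 TPM in the controls. The list held miR-200c-3p but not miR-200b-3p, which had a mean of 6635 TPM. Of 14 markers of blood, liver, muscle, neuron, endothelium and stroma, 2 reached that level (miR-9-5p and miR-486-5p). The sums over the 14 were 350.6 and 445.5 TPM in the apelin libraries and 349.0 and 348.9 TPM in the controls. Most of each sum was miR-9-5p, with 300 and 399 TPM in apelin 1 and 2, against 298 and 299 TPM in control 1 and 2. The part of these markers in the results below was not tested.

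The family was present at widely different levels, and its total was close to equal in the apelin and control groups. The 5 members together made up 1.35% and 1.48% of the counts in apelin 1 and 2, against 1.32% and 1.52% in control 1 and 2. The 95% binomial intervals (Wilson), which cover counting error only, were 1.34% to 1.36% in apelin 1, 1.47% to 1.49% in apelin 2, 1.31% to 1.32% in control 1 and 1.51% to 1.53% in control 2. The groups overlapped, and the control libraries lay farther apart than the apelin libraries. On the log2 scale the summed TPM was 0.00044 higher with apelin (two-sided exact permutation test over libraries, p = 1.0, with 0.33 the smallest p that 2 against 2 can give). This difference was -0.066 without apelin 2 and -0.10 without control 1.

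The order of levels was the same in all 4 libraries: miR-15b-5p, miR-16-5p, miR-15a-5p, miR-195-5p and miR-497-5p. miR-15b-5p ranked 23rd to 26th of all entries by TPM and miR-16-5p 35th to 43rd, while the other 3 ranked between 153rd and 213th. The lowest neighbours in the order, miR-195-5p and miR-497-5p, had overlapping 95% Poisson intervals in both control libraries (22.6 to 31.1 TPM and 18.7 to 26.4 TPM in control 1). In the apelin libraries these intervals did not overlap, at 28.2 to 38.1 TPM and 17.7 to 25.7 TPM in apelin 1. All higher neighbours differed by more than their spread in every library.

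No member passed the test between apelin-treated and control cells. edgeR's quasi-likelihood test, fitted over all 263 entries with a mean of at least 10 TPM, called 0 of the 5 members at an adjusted p under 0.05, where it called 0% of all entries. At an unadjusted p under 0.05 it gave 0 members, against 15 entries (5.7%). DESeq2 also called 0 members (1 at an unadjusted p under 0.05, miR-195-5p, against 28.1% of all entries), where it called 53 entries (20.2%). Those 53 included predicted entries, which the 5 members are not. On the 207 catalogue miRNAs seen in every library, a set run after seeing the data, DESeq2 called 0 entries and 0 members. By edgeR's fitted values 3 members were higher with apelin and 2 lower. The median log2 fold change of the 5 was 0.26, against -0.018 over all 263. Without apelin 2 these turned to 2 higher, 3 lower and a median of -0.015, against -0.059 over the 264 entries then tested. Without apelin 1 they were 4 higher and 1 lower, and without control 1 the median was 0.14.

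**Figure D2:**
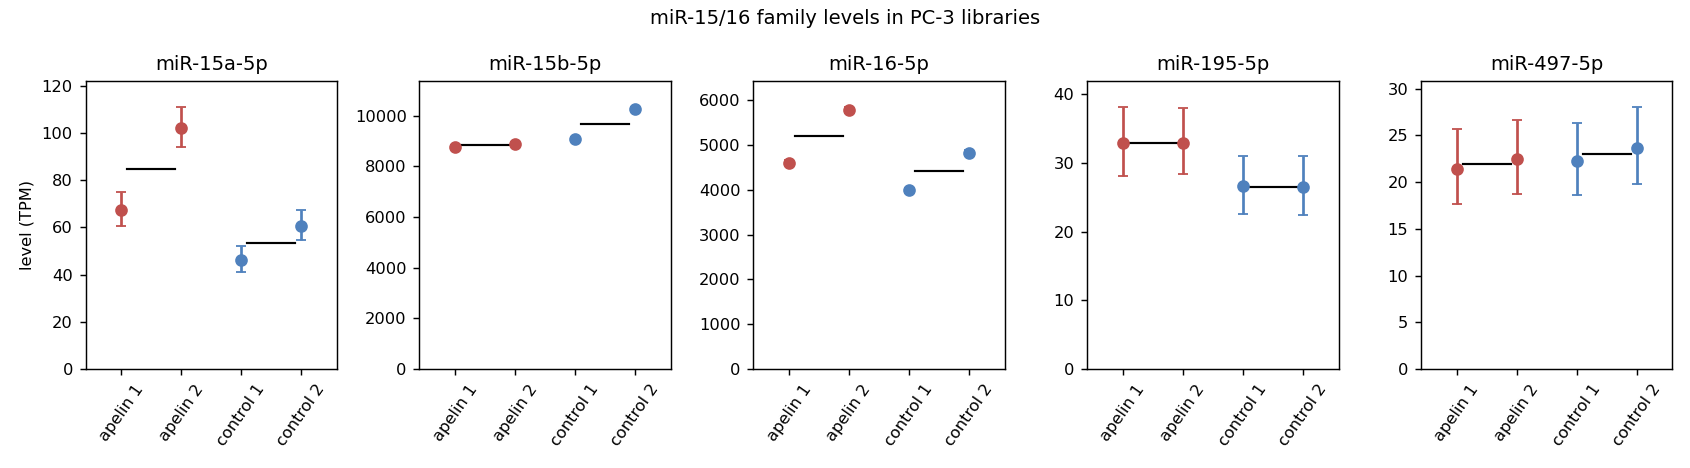
Level in TPM (vertical axes start at 0) of each member in each library, apelin in red and control in blue, with exact 95% Poisson intervals for counting error (at the 2 most abundant members smaller than the points) and a black line at each group mean. miR-15a-5p and miR-195-5p lie higher in both apelin libraries than in both controls, miR-15b-5p lies lower, and miR-16-5p and miR-497-5p overlap.

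miR-15b-5p, the most abundant member, comes from the SMC4 intron alone. It had 8780 and 8872 TPM in apelin 1 and 2, against 9075 and 10251 TPM in control 1 and 2. Both apelin libraries lay below both controls, but control 1 was closer to the apelin libraries than to control 2. Its log2 fold change was -0.11 (SE 0.080, 95% interval -0.37 to 0.15, edgeR adjusted p = 0.663). It was -0.22 without apelin 2, -0.19 without control 1 and -0.067 without control 2.

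miR-16-5p, the product of both miR-16 hairpins and the member first tied to BCL2 together with miR-15a, had 4601 and 5774 TPM in apelin 1 and 2, against 3983 and 4826 TPM in control 1 and 2. The groups overlapped, with apelin 1 below control 2, and the libraries numbered 2 were the higher of each group. Its log2 fold change was 0.26 (SE 0.20, 95% interval -0.39 to 0.92, edgeR adjusted p = 0.664), and it turned to -0.015 without apelin 2.

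miR-15a-5p, the one member here that comes from the chromosome 13 locus alone, had the highest fitted fold change of the 5. It stood at 67.5 and 102.3 TPM in apelin 1 and 2 (359 and 583 counts), against 46.2 and 60.8 TPM in control 1 and 2 (278 and 344 counts). Both apelin libraries lay above both controls, though the counting intervals of apelin 1 (60.7 to 74.8 TPM) and control 2 (54.5 to 67.5 TPM) overlapped. The log2 fold change was 0.70 (SE 0.35, 95% interval -0.43 to 1.83, edgeR adjusted p = 0.627). It was 0.26 without apelin 2 and 0.99 without apelin 1.

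miR-195-5p and miR-497-5p are neighbours in MIR497HG and are known as low in many tumours. miR-195-5p had 32.9 and 33.0 TPM in apelin 1 and 2 (175 and 188 counts), against 26.6 and 26.5 TPM in control 1 and 2 (160 and 150 counts). The groups did not overlap, and libraries of one group lay closer together than their counting error. Each of the 4 Poisson intervals was wider than the difference between the group means, and those of apelin 1 (28.2 to 38.1 TPM) and control 1 (22.6 to 31.1 TPM) overlapped. The log2 fold change was 0.33 (SE 0.20, 95% interval -0.31 to 0.97, edgeR adjusted p = 0.627), and DESeq2 gave an unadjusted p = 0.0400 and an adjusted p = 0.148.

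miR-497-5p had 21.4 and 22.5 TPM in apelin 1 and 2 (114 and 128 counts), against 22.3 and 23.7 TPM in control 1 and 2 (134 counts in each). The groups overlapped. Its log2 fold change was -0.044 (SE 0.21, 95% interval -0.72 to 0.63, edgeR adjusted p = 0.931), and it turned to 0.015 without apelin 1.

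In all, 3 of the 5 members had no overlap between groups, a state shared by 38.4% of the 263 tested entries. Higher without overlap were miR-15a-5p and miR-195-5p (20.9% of all entries were), and lower was miR-15b-5p (17.5% were).

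**Figure D3:**
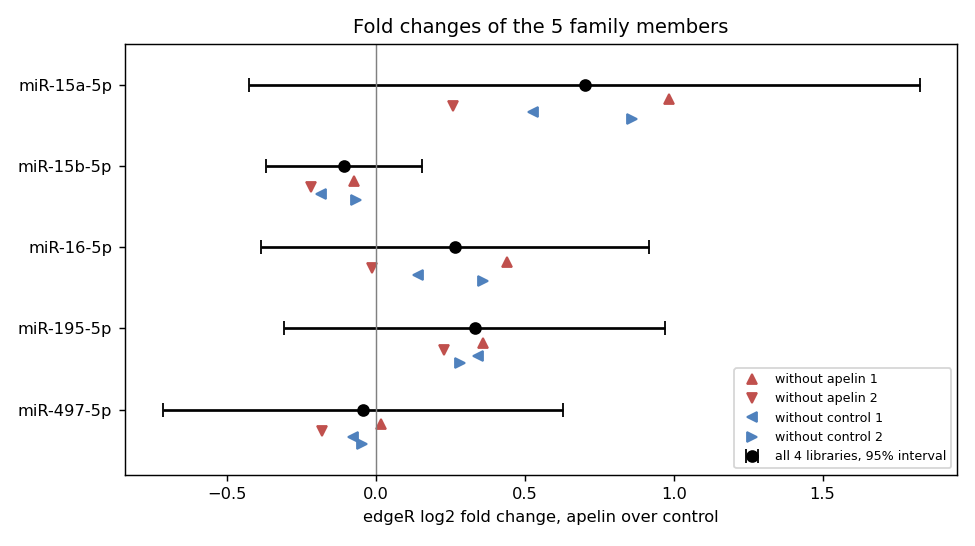
edgeR log2 fold change of each member, apelin over control, as a black point with its 95% interval from all 4 libraries, and as coloured triangles when 1 library is left out. All 5 intervals include 0, and the value of miR-16-5p without apelin 2 (-0.015) and of miR-497-5p without apelin 1 (0.015) lie across 0 from the value with all libraries.

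The loci were then set against each other within each library, where library scaling cancels. The ratio of miR-15a-5p to miR-15b-5p stood for the 15a/16-1 over the 15b/16-2 locus, by mature arms only. It was 0.00768 and 0.0115 in apelin 1 and 2, against 0.00509 and 0.00593 in control 1 and 2. Both apelin libraries lay above both controls. The log2 ratio averaged -6.73 ± 0.41 with apelin and -7.51 ± 0.15 in controls (SD, n = 2 each), a difference of 0.78 (exact permutation test, two-sided, p = 0.33, the smallest possible). It was 0.48 without apelin 2 and 1.07 without apelin 1.

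As a share, miR-15a-5p made up 0.762% and 1.14% of the counts of miR-15a-5p and miR-15b-5p in apelin 1 and 2, against 0.507% and 0.589% in control 1 and 2. The Wilson intervals were 0.688% to 0.845% in apelin 1 and 0.530% to 0.654% in control 2, which do not overlap. The apelin libraries differed from each other by more than counting error too.

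The miR-195/miR-497 locus was set against both others. Its summed level was 54.3 and 55.4 TPM in apelin 1 and 2, against 48.9 and 50.2 TPM in control 1 and 2. Relative to miR-15b-5p its log2 ratio averaged -7.33 ± 0.010 with apelin and -7.61 ± 0.098 in controls (SD, n = 2 each), a difference of 0.28. Relative to miR-15a-5p its ratio was 0.805 and 0.542 in apelin 1 and 2, against 1.06 and 0.826 in control 1 and 2. The log2 ratio averaged -0.60 ± 0.40 with apelin and -0.098 ± 0.25 in controls (SD, n = 2 each). The difference was -0.50, and -0.21 without apelin 2. Apelin 1 and control 2 nearly met, on 359 and 344 counts of miR-15a-5p, whose Poisson intervals overlapped.

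For these 3 locus ratios the groups did not overlap, and each gave p = 0.33 before and after adjustment over the 3 (exact permutation test, two-sided). The design cannot give a smaller p, so these differences did not pass and could not have. Split into its members, the miR-195/miR-497 locus did not keep both separations. The groups overlapped for miR-15a-5p over miR-195-5p (2.05 and 3.10 in apelin 1 and 2, against 1.74 and 2.29 in control 1 and 2). They also overlapped for miR-15b-5p over miR-497-5p, with a log2 difference of -0.062. Between any pair of the 207 tested catalogue miRNAs that were above 0 in all libraries, the log2 ratio did not overlap between groups in 43.2% of 21321 pairs.

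**Figure D4:**
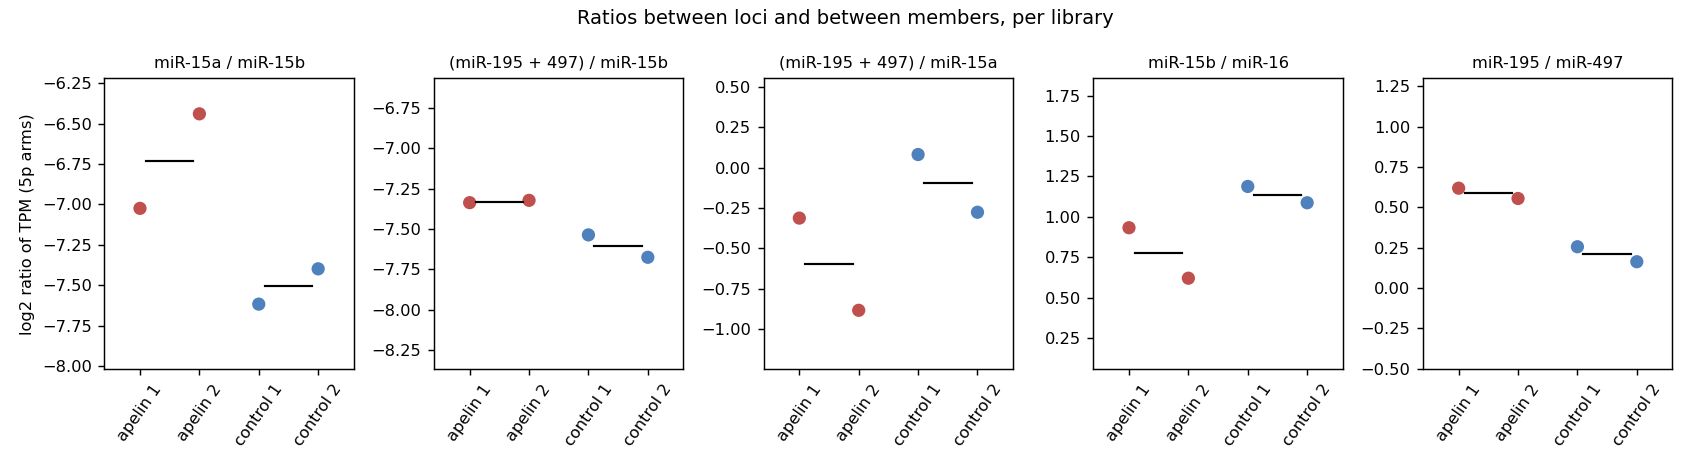
log2 ratio of TPM in each library for the 3 locus ratios and for miR-15b-5p over miR-16-5p and miR-195-5p over miR-497-5p, apelin in red and control in blue, with a black line at each group mean; every panel spans the same range of log2 units. In each panel the apelin libraries lie on one side of the controls. For the miR-195/miR-497 locus over miR-15a-5p, apelin 1 (-0.31) and control 2 (-0.28) nearly meet.

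Ratios between single members were taken next. All 10 ratios between the 5 members were computed, a choice made after their values were seen except for miR-15a-5p over miR-15b-5p, and 7 of them did not overlap between groups, against the 43.2% of all pairs. The ratios share members, so they are not 7 separate results. The 3 that overlapped were miR-15a-5p over miR-195-5p, miR-15b-5p over miR-497-5p and miR-16-5p over miR-195-5p. miR-195-5p over miR-497-5p, from one transcript, was 1.53 and 1.47 in apelin 1 and 2, against 1.19 and 1.12 in control 1 and 2. Its log2 difference was 0.38 (exact permutation test, two-sided, p = 0.33, adjusted p = 0.476 over 10 ratios). The depth does not separate single libraries: miR-195-5p made up 60.6% of the counts of this pair in apelin 1 (Wilson interval 54.8% to 66.0%) and 54.4% in control 1 (48.7% to 60.0%).

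miR-15b-5p over miR-16-5p was 1.91 and 1.54 in apelin 1 and 2, against 2.28 and 2.12 in control 1 and 2. The apelin libraries lay below the controls, with a log2 difference of -0.36 (exact permutation test, two-sided, p = 0.33, adjusted p = 0.476). It was -0.21 without apelin 2 and -0.52 without apelin 1. In terms of the family's make-up, miR-15b-5p held 62.5% ± 3.6 of the family's counts with apelin and 68.2% ± 1.1 in controls (SD, n = 2 each). miR-16-5p held 36.5% ± 3.5 with apelin and 31.0% ± 1.1 in controls (SD, n = 2 each), and the other 3 members held less than 1% each in every library. Since miR-16-5p can come from either locus, this ratio does not compare loci.

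miR-16-5p over miR-195-5p, the closest pair by sequence, was 140 and 175 in apelin 1 and 2, against 150 and 182 in control 1 and 2. The groups overlapped. The sources used here do not give how reads with a mismatch were counted, and reads passing from the abundant to the rare member of this pair were not tested.

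The profile of miR-16-5p over the 4 libraries was closest to those of miR-30b-5p, miR-106b-5p and miR-148b-3p. The root mean square difference between centred log2(TPM + 1) profiles was 0.043, 0.072 and 0.087, out of 139 catalogue miRNAs with a mean of at least 100 TPM. That of miR-15b-5p was closest to miR-151b (0.019), miR-30c-5p (0.049) and miR-23b-3p (0.050). miR-151b had 10249 and 10577 TPM in apelin 1 and 2, against 10852 and 11893 TPM in control 1 and 2, the same order of libraries as miR-15b-5p.

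Other miRNAs with related seeds or targets gave no call in edgeR. Of 4 relatives with a nearly or fully shared seed, the table held 1, miR-503-5p, from the X-linked cluster with miR-424. The other relatives, miR-424-5p among them, had no entry. miR-503-5p had 301.4 and 309.4 TPM in apelin 1 and 2, against 263.7 and 352.7 TPM in control 1 and 2. Both apelin libraries lay between the controls. Of 20 other miRNAs known to repress cyclins or BCL2, 17 were tested. edgeR called 0 of them higher and 0 lower (0% of all 263 entries), and DESeq2 called 6 of the 17 (20.2% of all entries, predicted ones included). Higher were miR-17-5p, miR-20a-5p and miR-19a-3p, and lower were miR-181b-5p, miR-200c-3p and let-7a-5p. On the 207 catalogue miRNAs seen in every library DESeq2 called 0 entries. edgeR's fitted values of the 17 were positive for 9 and negative for 8, with a median log2 fold change of 0.012. By abundance they were led by 4 miRNAs, let-7a-5p (log2 fold change -0.39, SE 0.049), miR-125b-5p (-0.16, SE 0.14), let-7b-5p (-0.23, SE 0.27) and miR-26a-5p (-0.066, SE 0.18). Without overlap, 4 of the 17 were higher and 4 lower with apelin, against 20.9% and 17.5% of all entries.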

How the data were processed

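Small RNA from PC-3 cells was sequenced in 2 apelin and 2 control libraries. Per the labels' protocols, adaptors were ligated, cDNA was amplified by PCR and a narrow size range was recovered from a gel. Trimmomatic 0.30 and DESeq2 are the tools named, per the submitters' processing notes. The sources used here do not give the aligner, miRNA catalogue, build or treatment of shared reads. The authors deposited whole read counts and TPM for 1096 entries. The deposited TPM equals counts per 1000000 of the library within 0.005 in 3 libraries and 0.151 in apelin 2. The number of unmatched value columns was 0.

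Entries with a mean of at least 10 TPM (263, of which 213 catalogue) were fitted with edgeR 4.0.16 (TMM scaling, quasi-likelihood test, two-sided, Benjamini-Hochberg adjustment, threshold 0.05). Each SE is the size of the fitted log2 value divided by the root of edgeR's F, and gives the 95% intervals. DESeq2 1.42.0, limma 3.58.1 on log2(TPM + 1), other scalings and filters, replicate numbers as a block and leaving out each library were alternatives. Software was R 4.3.3, Python 3.11.15 with scipy 1.17.1, numpy 2.4.6, matplotlib 3.10.9 and pandas 2.3.3. The fits were also run on simulated data, with the same dispersion for every entry and larger changes than the members showed. The outcome of that run is not given here. Ratios used deposited TPM without a pseudocount. The protocols name no molecular identifiers, so PCR copies are not independent and Wilson and Poisson intervals cover counting error only. Sequences came from RefSeq and hosts from GENCODE 29. All members were named, with relatives and cyclin or BCL2 repressors by list and the 3 nearest profiles each for miR-16-5p and miR-15b-5p. Members and lists were chosen with earlier results of these data known.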

Additional observations from a re-analysis of the deposited data

How the results depend on the processing

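edgeR called 0 members and 0 entries. The count of members was 0 in every other planned setting, 3 members falling below a minimum of 100 TPM. The count of entries was 52 with no filter, 4 at a minimum of 100 TPM, 53 with DESeq2, 4 with limma and 0 to 19 with a library left out. With a replicate block edgeR called 0 of 263 entries and 0 members. Restricted to the 207 catalogue miRNAs seen in every library, a combination chosen after seeing the data, the replicate block gave 30 entries and 1 member. That member was miR-15a-5p (log2 fold change 0.66, edgeR adjusted p = 0.0336). On the same 207 miRNAs, edgeR without the block called 0 entries and 0 members. So did DESeq2 and limma, both also run there after seeing the data. In that order, these 3 fits gave miR-15a-5p an adjusted p of 0.436, 0.309 and 0.448. No label says that equal numbers mark a pair; deviations of equally numbered libraries had a correlation of 0.318 across the 207 miRNAs. With a library left out, the log2 difference of the family sum ran from -0.10 to 0.10, miR-16-5p from -0.015 to 0.44, miR-497-5p from -0.18 to 0.015, and miR-16-5p over miR-195-5p from -0.24 to 0.084, so these 4 reversed; the cause was not tested, beyond there being fewer libraries. miR-15a-5p, miR-15b-5p, miR-195-5p, the 3 locus ratios and the other 9 ratios of members kept their direction in all settings run. The locus ratio of 15a to 15b ran from 0.48 to 1.07. The planned ratio of the 3p arms of miR-16-1 and miR-16-2 was not run, as those arms had no entry under these names. Every member row was a 5p arm, so settings with 5p rows alone, or with 5p and 3p rows, repeat the main ones. They are no separate check. Depth limits miR-195-5p and miR-497-5p most, at 114 to 188 counts per library.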
